A study of Bos taurus with 12 samples.

Results

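The regions described here are methylated-DNA peaks at the distal ends of the 29 cattle autosomes. For each autosome the length was taken as the highest peak end found in any of the deposited lists, and a peak counted as distal when its start lay within 3 Mb of that length. By this rule 33683 of the 246745 autosomal peaks called in 12 libraries were distal, which is 13.7% of the peaks in 3.46% of the autosomal length. Joined wherever they overlapped, the peaks of the 12 libraries made 10848 distal regions among 74459 autosomal regions. The rule used only positions, so width, pileup and the libraries in which a region was called were measured independently of it. Density counts the same positions, and each chromosome end was set by the outermost peak end of these lists.

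The libraries were made by MBD-seq, in which sheared DNA is captured by a protein that binds methylated CpG and is then sequenced. DNA came from the longissimus muscle of Angus steers kept on a shared diet, 2 with tender beef and 2 with tough beef by shear force, and no treatment or age is given by the labels. Each capture was eluted serially in 3 steps, which gave high (H), medium (M) and low (L) methylated fractions of tender (TE) and tough (TO) beef, named HTE and HTO, MTE and MTO, and LTE and LTO, each with 2 libraries. The 12 libraries therefore come from 4 animals and are not independent, muscle tissue mixes cell types, and no cell type marker is measured by such peaks. The labels call the libraries by an elution gradient. The Methods pair the high methylated fraction with the low-concentration buffer, whereas other text of the study pairs it with high salt, where methyl-rich fragments are known to elute. Both call HTE and HTO the high methylated fraction, and that naming is used here. After removal of duplicates the authors' peak caller kept 3677473 to 7981292 tags per library, with the high libraries at the low end (3677473 to 4843388), and 9944 to 36663 peaks were called per library on all chromosomes.

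Cattle autosomes carry their centromere at one end, and the assembly is numbered from that end, so the distal end is the arm's telomeric side. In mammals the stretches next to telomeres tend to be rich in G and C, in CpG and in genes, and recombination is frequent there. Methylated CpG is bound by proteins with a methyl-CpG binding domain, and a fragment with more methylated CpG is held more strongly, which is why serial elution separates fragments.

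Distal peaks were several times denser than peaks farther in, in every library. In the high eluate the distal density was 20.97 and 26.9 peaks per Mb in HTE and 17.6 and 22.8 in HTO, against 3.81, 4.31, 3.57 and 4.08 peaks per Mb farther in. In the medium eluate it was 61.0 and 67.1 in MTE and 45.2 and 45.3 in MTO, against 11.7, 12.3, 8.27 and 8.60. In the low eluate it was 8.22 and 14.3 in LTE and 24.9 and 32.9 in LTO, against 3.65, 6.45, 10.6 and 10.6. The distal density exceeded the density farther in within all 12 libraries, and the medium libraries held the most distal peaks.

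**Figure D1:**
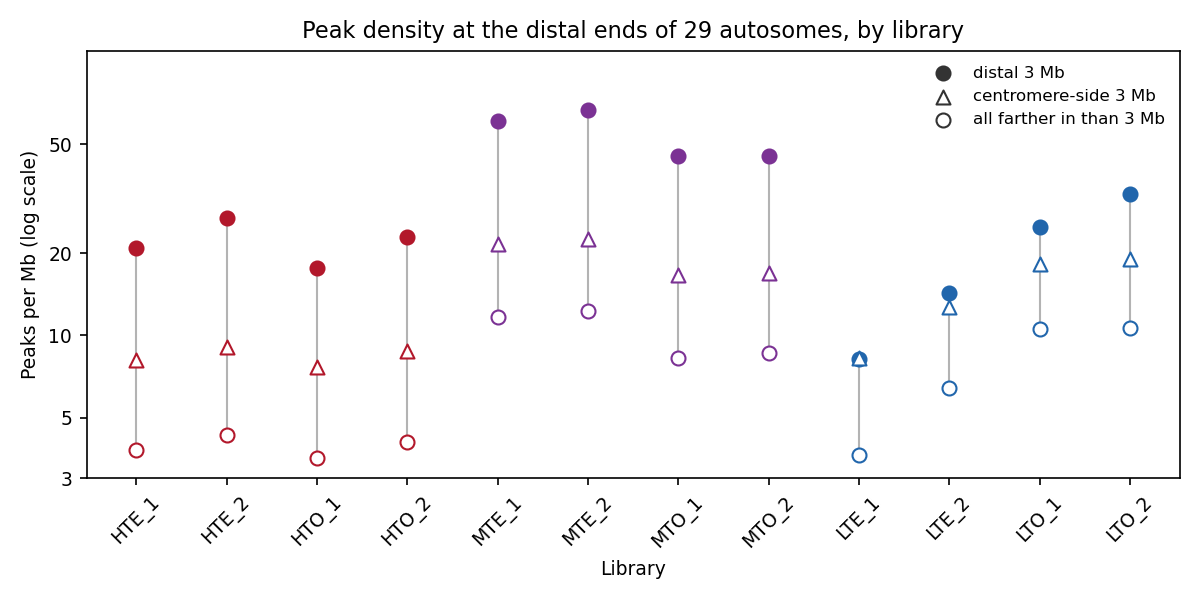
Peaks per Mb (log axis) in each of the 12 libraries, for the distal 3 Mb of 29 autosomes (filled circles), the 3 Mb on the centromere side (triangles) and everything farther in than the distal 3 Mb (open circles); red is high, purple medium and blue low. The filled circle is above the open circle in all 12 libraries, and in LTE_1 it meets the triangle (8.22 against 8.24 peaks per Mb).

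The ratio of the 2 densities was 5.51, 6.24, 4.94 and 5.59 in HTE_1, HTE_2, HTO_1 and HTO_2, and 5.24, 5.45, 5.47 and 5.27 in the medium libraries in the same order. It was 2.25, 2.22, 2.36 and 3.10 in LTE_1, LTE_2, LTO_1 and LTO_2. The low libraries lay below all high and medium libraries, and the high and medium libraries overlapped. On the log2 scale the ratio was 2.47 ± 0.14 (SD, n = 4) in high, 2.42 ± 0.03 in medium and 1.30 ± 0.23 in low, that is 5.55-fold, 5.35-fold and 2.46-fold. Over 12 libraries the mean was 2.06, with a two-sided exact sign-flip p of 0.000488, the smallest that 12 libraries can give. That test takes the 12 libraries as independent, although they come from 4 animals. Within an eluate 4 libraries cannot go below 0.125, the value each eluate gave.

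The low eluate differed from both others in the distal ratio. High exceeded low by 1.18 on the log2 scale and medium exceeded low by 1.12 (two-sided exact permutation tests, 4 against 4 libraries, p = 0.0286 and adjusted p = 0.0429 over 3 pairs for both). These tests treat the libraries as independent, although the eluates are serial fractions from the same 4 animals. With libraries of the same beef and replicate number paired, which the labels do not establish, neither call was kept (exact sign-flip p = 0.125, the smallest that 4 pairs allow, adjusted p = 0.188). High and medium differed by 0.05 (exact permutation p = 0.514). That last difference depended on which peaks were kept: with the 9555 peaks of highest −log10 p per library it was 0.75, and with peaks of a pileup under 50 it was 0.49, both with an exact permutation adjusted p of 0.0286. The shares of autosomal peaks that were distal followed the same order, at 15.1% to 18.3% in high, 15.8% to 16.4% in medium and 7.38% to 10.004% in low libraries. At these numbers of peaks the 95% Wilson intervals of a single library spanned 14.4% to 15.8% for HTO_1 and 6.97% to 8.03% for LTE_1, which cover counting error only.

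The 3 Mb nearest the centromere gave a second reference of equal length. Its density was 7.69 to 9.07 peaks per Mb in high, 16.7 to 22.5 in medium and 8.24 to 19.1 in low libraries, also above the rest of the chromosome. Distal peaks were 2.60-fold denser than centromere-side peaks in high, 2.80-fold in medium and 1.28-fold in low libraries (geometric means, n = 4 each). LTE_1, at 0.997, was the library in which the distal end was not the denser of the 2 ends. In this comparison, chosen after the data were seen, high exceeded low by 1.02 and medium exceeded low by 1.13 on the log2 scale (exact permutation adjusted p = 0.0429 for both). Over 12 libraries, taken as independent, the exact sign-flip p was 0.000977, with 11 of 12 libraries denser at the distal end.

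Density was high over the whole 3 Mb and fell beyond it. In high libraries the mean ran from 17.6 ± 2.82 (SD, n = 4) peaks per Mb at 2 to 2.5 Mb from the end to 26.0 ± 5.19 at 0.5 to 1 Mb. It was 13.0 ± 2.37 at 3 to 4 Mb, 7.47 ± 1.05 at 4 to 5 Mb and 3.21 ± 0.31 at 20 to 30 Mb. Relative to each library's density farther in, the 3 to 4 Mb bin still stood at 3.29 ± 0.35 in high, 3.66 ± 0.11 in medium and 2.01 ± 0.30 in low libraries, so the boundary of 3 Mb lies inside the enriched stretch. At 20 to 30 Mb the same ratio was 0.81 ± 0.01, 0.83 ± 0.02 and 0.90 ± 0.01.

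**Figure D2:**
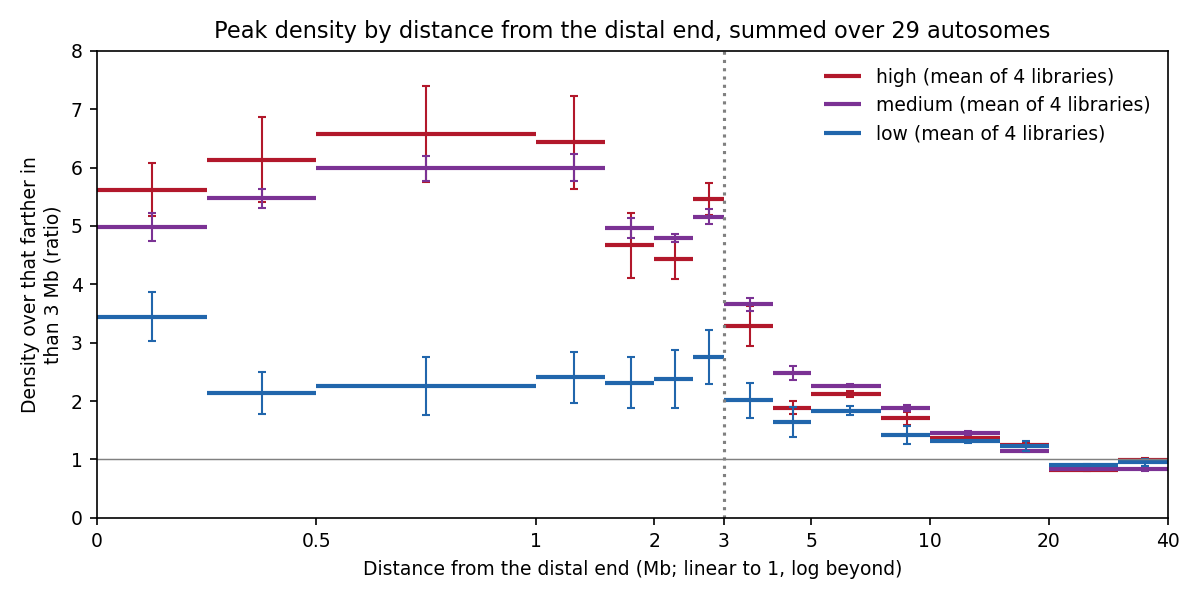
Peak density relative to the density farther in than 3 Mb (vertical axis, ratio) against distance from the distal end (horizontal axis, Mb, linear to 1 Mb and log beyond), as the mean of 4 libraries per eluate with SD. High and medium stay between 4.43 and 6.57 up to the dotted line at 3 Mb, low is highest in the last 0.25 Mb at 3.44, and all fall to about 1 beyond 20 Mb.

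The last 0.25 Mb differed between eluates. In low libraries the density there was 14.5, 21.1, 31.6 and 37.5 peaks per Mb in LTE_1, LTE_2, LTO_1 and LTO_2, against 7.65, 13.7, 24.3 and 32.5 over the other 2.75 Mb. The ratio of these was 1.47 ± 0.32 (SD, n = 4; 1.16 to 1.89) in low, 1.01 ± 0.06 (0.934 to 1.09) in high and 0.924 ± 0.033 (0.899 to 0.971) in medium libraries, and the low libraries did not overlap the others. The 759 low peaks in these last 0.25 Mb were spread over 29 chromosomes, with 24.6% of them on chromosomes 11, 4 and 23. This bin is bounded by the outermost peak end of the lists, was picked after its values were seen and was not tested.

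Autosomes differed in how strongly their distal end stood out. Distal density was above that farther in, in all 4 libraries of an eluate, on 27 of 29 autosomes in high, 29 of 29 in medium and 27 of 29 in low. The median ratio over autosomes was 6.17 in high, 5.50 in medium and 2.69 in low, with ranges of 0.793 to 16.04, 1.42 to 10.4 and 1.21 to 4.16. No single autosome carried the result: the 5 richest held 25.8% of the distal peaks in high, 23.1% in medium and 23.7% in low.

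Averaged over the eluates, chromosomes 20, 12 and 2 had the highest ratios, at 7.78, 7.58 and 6.89. Chromosome 12 reached 16.04 in high, with 98, 122, 69 and 106 distal peaks in HTE_1, HTE_2, HTO_1 and HTO_2, and 9.87 in medium and 2.75 in low. Its density farther in was 2.05 peaks per Mb in high libraries, the lowest of the autosomes. Chromosome 20 stood at 11.1, 10.4 and 4.07 in high, medium and low, and chromosome 2 at 8.57, 9.19 and 4.16. On chromosome 2 the density farther in was the lowest of the autosomes in medium (5.95) and low (5.08). Its distal density was 17.9, 54.7 and 21.1 peaks per Mb in high, medium and low, beside medians over autosomes of 22.25, 55.5 and 18.8. Summed over the 12 libraries chromosome 8 held the most distal peaks, 1674, with 112, 121, 107 and 110 in HTE_1, HTE_2, HTO_1 and HTO_2 and 47, 86, 131 and 155 in LTE_1, LTE_2, LTO_1 and LTO_2.

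The lowest ratios were those of chromosomes 27, 28 and 18, at 1.26, 1.58 and 2.32. Chromosome 28 held 10, 12, 9 and 12 distal peaks in the high libraries, or 3.58 ± 0.50 (SD, n = 4) per Mb against 4.57 farther in, and the distal end was the sparser in all 4. The same end was 2.40-fold denser than the rest in medium and 2.06-fold in low libraries, with 92, 90, 49 and 61 peaks in MTE_1, MTE_2, MTO_1 and MTO_2. The 3 eluates therefore gave different readings on chromosome 28. On chromosome 27 the ratios were 1.00, 1.42 and 1.40 in high, medium and low, and its density farther in, 13.6 peaks per Mb in high, was the highest of the autosomes. Chromosome 18 stood at 3.12, 2.42 and 1.65.

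**Figure D3:**
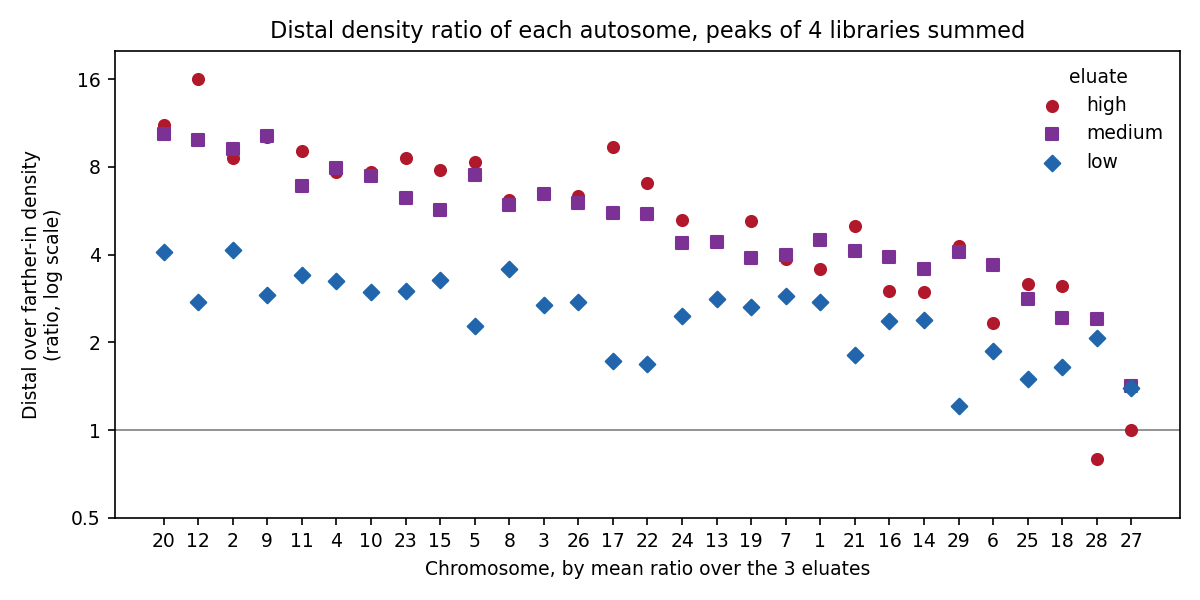
Ratio of distal density to density farther in (log axis) for each of 29 autosomes, ordered by the mean over the eluates; each point sums the peaks of the 4 libraries of an eluate, and the line marks equal density. High ranges from 0.793 (chromosome 28) to 16.04 (chromosome 12), and low stays between 1.21 and 4.16.

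The numbers of distal peaks per autosome followed similar orders in high and medium libraries and another order in low libraries. Spearman's rho between 2 libraries over the 29 autosomes had a median of 0.93 (0.90 to 0.96) within high, 0.95 within medium and 0.91 (0.84 to 0.95) between high and medium. Within low it was 0.77 (0.60 to 0.85), between high and low 0.12 (−0.16 to 0.35) and between medium and low 0.13 (−0.14 to 0.46). These are descriptions over 29 points that share window length and base composition between libraries. Distal and farther-in density were unrelated over autosomes, with rho of −0.10 in high, −0.11 in medium and 0.12 in low.

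Pileup, the number of tag fragments stacked at a peak's summit, was not divided by library size and was compared only within a library. The median distal pileup was 14, 16, 12 and 14 in HTE_1, HTE_2, HTO_1 and HTO_2, against 54, 25, 50 and 21 farther in. In the medium libraries it was 14, 14, 12 and 13 against 12, 12, 13 and 13, and in the low libraries 11, 10, 10 and 10 against 17, 10, 10 and 10. Distal peaks had the lower median in all 4 high libraries, while in medium and low libraries the medians were mostly close. The log2 ratio was −1.31 ± 0.80 (SD, n = 4) in high, 0.08 ± 0.17 in medium and −0.16 ± 0.31 in low. High was below medium by 1.39 on the log2 scale (exact permutation p = 0.0286, adjusted p = 0.0857), which did not pass after adjustment, and over 12 libraries the mean was −0.46 (exact sign-flip p = 0.0547).

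The medians hid a class of peaks with high pileup that made up a smaller share of distal peaks than of peaks farther in. Peaks with a pileup of 50 or more were 12.3%, 9.41%, 13.8% and 10.6% of distal peaks in HTE_1, HTE_2, HTO_1 and HTO_2, against 50.4%, 42.9%, 50.03% and 42.7% farther in. They made up 4.56% to 6.36% against 19.1% to 27.3% in medium and 8.63% to 21.5% against 18.9% to 41.6% in low libraries. The distal share was the lower in all 12 libraries. Counted by density, high-pileup peaks were 1.17 to 1.39 times as dense at distal ends as farther in, over all 12 libraries. Peaks with a pileup under 50 were 8.53 to 9.91 times as dense in high, 6.17 to 7.04 in medium and 2.60 to 3.55 in low libraries. At this cut the eluates thus differed in the peaks of lower pileup. The same raw value was used in every library, although the tags kept ran from 3677473 (HTO_1) to 7981292 (LTO_1). The 2 classes therefore need not be alike between eluates. The value of 50 was set after the data were seen, and 1.70% to 8.32% of a library's peaks had a pileup of 30 to under 70. With 100 in its place the high-pileup ratios were 0.948 to 1.39, with LTE_1 alone below 1.

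**Figure D4:**
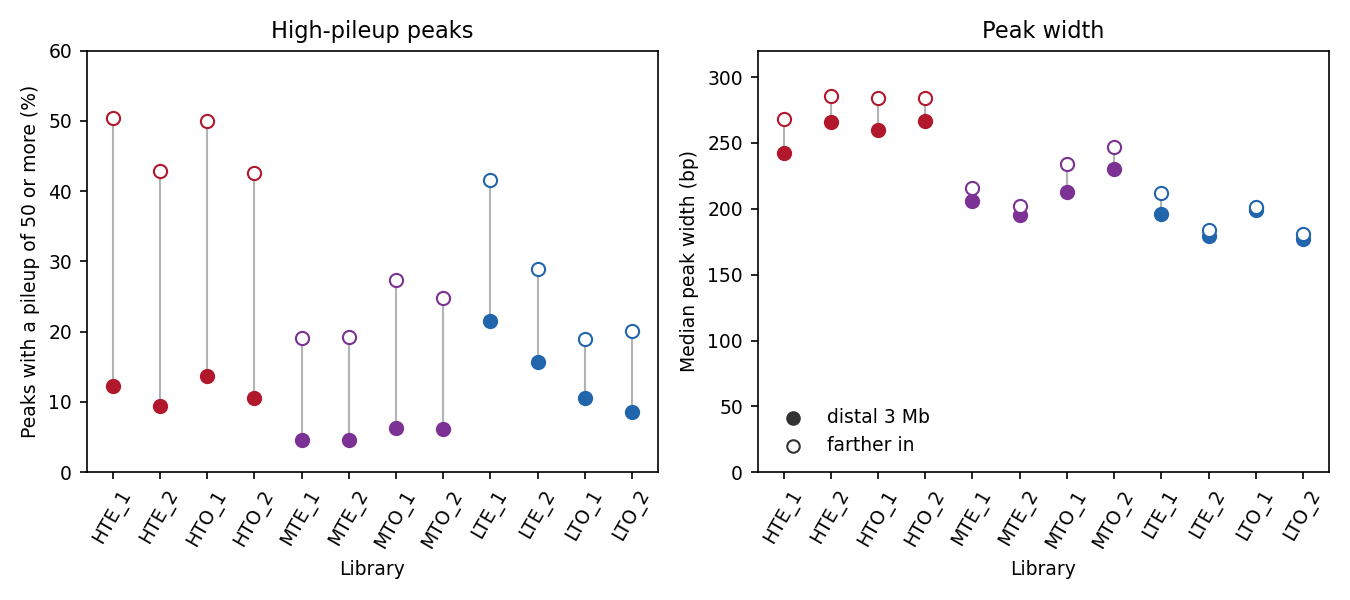
Left, percentage of peaks with a pileup of 50 or more, and right, median peak width in bp, in each library for distal peaks (filled) and peaks farther in (open); red is high, purple medium and blue low. Both the share and the width are lower for distal peaks in all 12 libraries, and the shares differ most in the high libraries (9.41% to 13.8% against 42.7% to 50.4%).

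Distal peaks were slightly narrower. Median widths were 242, 266, 260 and 267 bp in HTE_1, HTE_2, HTO_1 and HTO_2, against 268, 286, 284 and 284 bp farther in. In medium libraries they were 206, 195, 213 and 230 bp against 216, 202, 234 and 247 bp. In low libraries they were 196, 179.5, 199 and 177 bp against 212, 184, 201 and 181 bp. The distal median was the smaller in 12 of 12 libraries, by 0.085 on the log2 scale, a ratio of 0.943 (exact sign-flip p = 0.000488, libraries taken as independent). By eluate the log2 ratio was −0.12 ± 0.03 (SD, n = 4) in high, −0.09 ± 0.04 in medium and −0.05 ± 0.04 in low, and no pair of eluates differed after adjustment (exact permutation adjusted p = 0.257 to 0.286).

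In the single libraries the narrower median went together with the lower share of high-pileup peaks. Among peaks of a pileup under 50 the mean log2 width ratio over 12 libraries was 0.011 (exact sign-flip p = 0.213). In the merged lists, with peaks of every pileup counted, it was 0.028, so the direction depended on which peaks and lists were counted. Peaks of 1000 bp or more were 0.264% to 1.06% of distal peaks and 0.888% to 3.27% of those farther in. Widths also have a floor, the fragment size estimated by the peak caller, 146 to 203 bp. At it sat 11.5% to 26.6% of distal peaks and 7.95% to 24.8% of those farther in. The distal share was the higher in all libraries except MTE_2 and LTO_1.

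Fold enrichment over the local background showed the eluates apart. Its distal median was 7.27, 7.33, 6.99 and 7.19 in HTE_1, HTE_2, HTO_1 and HTO_2, above 6.08, 6.59, 5.53 and 6.20 farther in. In medium libraries it was 6.34 to 6.42 against 6.55 to 6.97, lower at distal ends in all 4. In low libraries it was 5.67 to 5.95 against 5.83 to 6.41, and lower in 3 of 4, LTE_1 excepted. These medians were not tested. Peaks covered 0.681% ± 0.131 (SD, n = 4) of the distal 3 Mb in high, 1.35% ± 0.20 in medium and 0.463% ± 0.230 in low libraries, against 0.139%, 0.282% and 0.2003% farther in.

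Tender and tough beef were compared within each eluate, where 2 against 2 libraries cannot go below an exact permutation p of 0.333. In the high eluate the log2 density ratio was lower in tough by 0.16 (exact permutation p = 0.667) and in the medium eluate the difference was 0.007 (exact permutation p = 0.667), and in both eluates the beefs overlapped. In the low eluate both tough libraries (2.36 and 3.10) were above both tender libraries (2.25 and 2.22), a log2 difference of 0.27 (exact permutation p = 0.333). Without LTO_2 the difference was 0.07 and without LTO_1 it was 0.47, so its size rested on LTO_2. When every library was limited to these 9555 peaks this difference was −0.20, so its direction was not held.

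Distal peak numbers themselves moved with those of the rest of the chromosome. In the medium eluate tough libraries had 3932 and 3941 distal peaks and tender libraries 5308 and 5834, a log2 difference in density of −0.50, beside −0.51 farther in. In the low eluate tough had 2165 and 2861 and tender 715 and 1246, a difference of 1.40 beside 1.13 farther in. In the high eluate it was −0.24 beside −0.09. The beefs did not overlap in medium and low, in opposite directions, and overlapped in high. The tags kept per library moved in the same directions, 6589423 and 6886676 in MTE against 6010993 and 5969045 in MTO, and 5770411 and 7165381 in LTE against 7981292 and 7212507 in LTO, and their part in the peak numbers was not tested.

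For the width and pileup ratios 2 against 2 libraries could not decide whether the beefs differed. The tough minus tender log2 difference in width ratio was 0.02 in high, −0.06 in medium and 0.05 in low. For the pileup ratio it was −0.03 in high, −0.28 in medium and 0.31 in low. The exact permutation p-values were 0.333 to 1 for these 6 differences. The beefs did not overlap for width in medium and low and for pileup in medium, and overlapped in the others. The pileup difference in low came from LTE_1, since LTE_2, LTO_1 and LTO_2 each had a log2 ratio of 0.

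Regions called over the 12 libraries were grouped by the eluates in which at least 1 library had a peak. Of the 10848 distal regions 4114, or 37.9%, had peaks in medium libraries alone, against 23.7% of regions farther in. A further 1792, or 16.5%, had peaks in high and medium but no low library, against 5.62%. Regions with peaks in low libraries alone were 1817, or 16.7%, against 34.3%. The 801 autosomal regions with peaks in high libraries alone included 364 distal ones, or 45.4%, although distal regions were 14.6% of all regions. A peak in just 1 of 4 libraries was found at 33.1% of distal regions in medium, against 25.3% farther in. In high it was 11.2% against 5.94%, and in low 29.3% against 44.8%. Peaks in 4 of 4 libraries were less frequent at distal ends in every eluate. They were at 15.9% against 18.8% in medium, 8.77% against 9.70% in high and 2.55% against 7.63% in low.

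**Figure D5:**
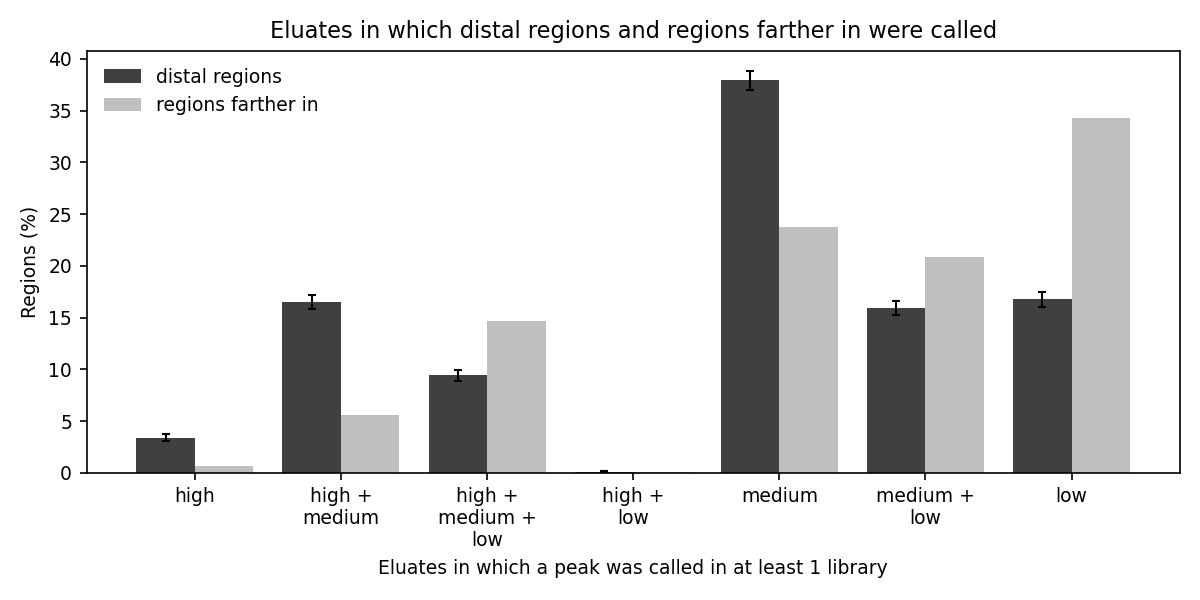
Percentage of 10848 distal regions (dark, with 95% Wilson intervals, which cover counting error only) and of 63611 regions farther in (light) by the eluates in which at least 1 library had a peak. Medium alone (37.9% against 23.7%) and high with medium (16.5% against 5.62%) are larger at distal ends, and low alone (16.7% against 34.3%) is smaller.

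Few distal regions were found in all libraries. Peaks in all 12 libraries were seen at 141 distal regions (1.30%; 95% Wilson interval 1.10% to 1.53%) and at 4.77% of regions farther in. These 141 lay on 27 autosomes, with 21 on chromosome 8. Their median pileup was close to that of their counterparts farther in, at 171 and 166.5, and their median width was 485 bp against 573 bp. A median pileup of 100 or more was found at 78.7% of them, against 84.2% farther in. These differences were not tested. At the other extreme, 39.8% of distal regions and 46.0% of those farther in had a peak in 1 library alone.

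Presence or absence in all libraries of 2 eluates was set beside the same share over all autosomal regions with a peak in either eluate. A peak in 4 of 4 high and 0 of 4 low libraries was found at 524 of 6734 distal regions (7.78%), beside 2.62% of all. The opposite pattern was found at 87 (1.29%), beside 2.05%. A peak in 4 of 4 medium and 0 of 4 low libraries was found at 742 of 10484 (7.08%), beside 3.75%, and the opposite at 24 (0.229%), beside 0.276%. For high without medium the count was 40 of 9031 (0.443%), beside 0.12%, and for medium without high 369 (4.09%), beside 5.39%. Patterns with high present and the other eluate absent were thus above the share over all regions, and medium without high was below it.

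Distal regions called in both libraries of a beef and neither of the other were at or above the share over all regions, which includes the distal ones. In high they were 149 of 3187 distal regions for tender (4.68%), beside 3.6% of all, and 54 for tough (1.69%), beside 1.68%. In medium they were 815 of 8657 for tender (9.41%), beside 8.87%, and 206 for tough (2.38%), beside 1.78%. In low they were 33 of 4578 for tender (0.721%), beside 0.497%, and 455 for tough (9.94%), beside 9.5%. Farther in, the tender and tough shares were 3.35% and 1.68% in high, 8.75% and 1.65% in medium and 0.474% and 9.46% in low. The excess of tender calls in medium and of tough calls in low was thus seen over all autosomal regions as well.

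The strongest distal region in all 12 libraries lay at chr21:70102720-70103348 (bosTau8), 1.49 Mb from the end. Its fold enrichment was 35.6, 32.7, 34.0 and 32.9 in HTE_1, HTE_2, HTO_1 and HTO_2, 33.0, 32.7, 34.1 and 33.6 in the medium libraries and 27.5, 29.2, 26.1 and 30.6 in the low libraries in the same order. The low libraries were below all others. Tender and tough overlapped in high and low, while in medium both tough libraries were above both tender libraries (34.1 and 33.6 against 33.0 and 32.7). The region was also the strongest of those in all 4 high libraries.

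The region at chr4:120740492-120740880, 0.087 Mb from the end, was the strongest of those in all 4 medium and in all 4 low libraries. Its fold enrichment was 36.9, 36.1, 37.2 and 34.5 in MTE_1, MTE_2, MTO_1 and MTO_2, and 29.7, 30.03, 25.8 and 26.1 in the high libraries. In the low libraries it was 27.2, 30.5, 26.3 and 32.3. Medium thus stood above high and low, which overlapped. No gene annotation of bosTau8 was used here, so genes, exons and introns at these regions were not analysed.

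Of the distal regions called for a beef, those with the highest lower fold enrichment are given for each eluate. The tender region in high, chr15:85048817-85049171, had values of 12.4 and 15.6 in HTE and no peak in HTO, yet peaks were present in all 4 medium libraries, at 14.5 and 14.1 in MTE and 6.76 and 6.82 in MTO. The tough region in high, chr19:61948096-61948521, had 8.06 and 9.20 in HTO and likewise had peaks in all 4 medium libraries, at 6.52 to 11.2. The beef difference in high was set by the choice of these regions, so only the medium values add to it. At the first, tender was above tough in medium as well. At the second the medium libraries did not follow the high ones, with MTE at 11.2 and 9.82 and MTO at 6.52 and 9.20.

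In medium, chr15:84172218-84172478 had 11.1 in both MTE libraries and no peak in MTO, and its 1 further peak was in a tough library, LTO_2, at 5.73. The tough region, chr11:105404407-105404679, had 9.47 and 11.5 in MTO, and peaks in HTE_2, HTO_1, LTE_1 and LTO_1, so it followed no beef in the other eluates. In low, chr22:59374035-59374263 had 7.87 and 7.97 in LTE and also peaks in both MTE libraries, at 7.24 and 7.64, and in none of the tough libraries. The tough region, chr11:107113409-107113934, 0.196 Mb from the end, had 10.05 and 9.02 in LTO and 7.28 and 7.30 in MTO, and no peak in a tender library. At chr22:59374035-59374263 and chr11:107113409-107113934 the beef in low was set by the choice of region, and the medium peaks were in the same beef. The eluates come from the same animals and are not independent. An absent peak says only that no peak passed the authors' threshold in that library.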

How the data were processed

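MBD-seq libraries of longissimus muscle were cleaned with SOAPnuke and aligned by the authors to bosTau8 (BWA 0.7.7 and MACS2 per the submitters' processing notes). No input library entered the authors' MACS2 calls, which used a q-value cutoff of 0.01, a regional background window of 10000 bp and at most 1 tag for each position, with version 2.1.1.20160309 for 12 single libraries and 2.1.0.20150731 for 6 lists of merged replicates. The deposited values are the pileup, a signal not divided by library size, the fold enrichment, a ratio to local background, and the −log10 of the p-value and q-value, all the authors' own. Depth is therefore part of the lists, and 2 libraries of equal methylation may differ in peaks.

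Positions were counted from the highest peak end per autosome over the 18 lists. Density, median width and median pileup at distal ends and farther in were computed per library with scipy 1.17.1, pandas 2.3.3 and numpy 2.4.6 in Python 3.11.15. Ratios were tested on the log2 scale by two-sided exact sign-flip tests against 0 and exact permutation tests between eluates (Benjamini-Hochberg over 3 pairs) and beefs, with a threshold of 0.05. The tests against 0 and the permutation tests take the libraries as independent, although the 12 come from 4 animals. Where all values share a sign, the sign-flip p is the smallest possible whatever their spread. Regions joined peaks with 1 bp or more in common, checked against bedtools 2.31.1. The code was tested on simulated data, where a planted ratio of 5 was recovered as 4.89 to 5.18. Chromosome ratios had 0.5 peaks added to each count. Named chromosomes were the 3 highest and 3 lowest by mean log2 ratio over the eluates and the one with the most distal peaks, and named regions had the highest lowest fold enrichment within each class. The members, lists and rules were chosen with earlier results of these data known. Alternatives were other windows (1, 2 and 5 Mb), a minimum fold enrichment of 3, a −log10 q of at least 5, the same number of peaks, base pairs, joined peaks, means, chromosome medians, merged lists, each library left out, a replicate block and, added after the data were seen, peaks of a pileup under 50. Sequences, genes and repeats were not analysed here.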

Additional observations from a re-analysis of the deposited data

Results flagged for a closer look

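In 18 groups of 4 libraries tested for a library far from the other 3, 2 stood out. The chance rate of about 1 in 20 does not hold for tied values, and several of these measures are computed from each other. LTE_1 had a log2 pileup ratio of −0.628 while the other 3 low libraries were tied at 0, so any value other than 0 would have been flagged. It was the shallowest list of the low eluate, with 9555 autosomal peaks. LTO_2 had 10.004% of its autosomal peaks at distal ends, against 7.38% to 7.79% in the other low libraries. Its log2 density ratio, computed from the same counts, was not flagged.

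In 3 measures tender and tough differed in opposite directions in the medium and low eluates without overlap. Distal peaks per Mb were lower in tough by −18.8 in medium and higher by 17.6 in low. The log2 width ratio differed by −0.060 in medium and 0.051 in low, and the log2 ratio of distal to centromere-side density by −0.10 and 0.53. These differences between eluates were not tested.

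Chromosome X was outside the autosomal comparisons. Its distal 3 Mb, counted the same way, was denser than the rest of the chromosome by 3.18 in high, 4.59 in medium and 4.18 in low libraries (ratios, means of 4), so its low libraries were not below its high libraries. No control library without methylated DNA was analysed here.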

How the results depend on the processing

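All values here are log2 ratios or differences of log2 ratios. Over the alternatives run, distal density exceeded that farther in for all 3 eluates, with lowest and highest values of 2.18 and 3.20 in high, 1.57 and 2.71 in medium and 0.89 and 1.55 in low, and high and medium exceeded low by at least 1.02 and 0.68. Width ratios reversed under at least 1 alternative in medium and low, and pileup ratios in all 3 eluates. Tough minus tender reversed for density in medium and low, width in high and low and pileup in high, and did not reverse for density in high, width in medium and pileup in medium and low. The causes were not tested. Of 598 values under alternatives 505 counted as unchanged and 47 reversed. Unchanged meant the same direction and side of the threshold. For merged lists, which had no test, it meant the same direction within an SD of the main value. Within an eluate the exact sign-flip p over 4 libraries cannot go below 0.125, nor the exact permutation p between beefs below 0.333. For these results the side of the threshold was fixed in advance. Depth differs between eluates, and high libraries had the fewest tags. The part of depth in how many peaks were called was not tested.

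Same-numbered libraries were not shown to share an animal: correlations of their deviations over autosomes ran from −0.31 to 0.57. With a replicate block the density differences of 1.18 (high minus low) and 1.12 (medium minus low) had an exact sign-flip p of 0.125 and an adjusted p of 0.188, the smallest p that 4 pairs allow.

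With the same number of peaks, high minus medium density was 0.75, tough minus tender density −0.15 in medium and −0.20 in low, high minus medium width 0.021, tough minus tender width in high −0.027, pileup −1.34 in medium and −1.38 over all libraries, medium minus low pileup −0.84 and tough minus tender pileup in high 0.0027. With pileup under 50, high minus medium density was 0.49, width 0.045 in low and 0.011 over all, high minus low width −0.054, medium minus low −0.048, tough minus tender width in low −0.011, pileup 0.18 in high, 0.15 in low and 0.17 over all, high minus low pileup 0.023, and tough minus tender pileup 0.028 in high and 0 in low.

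In the merged lists density was 2.70 in high and 2.28 in medium, high minus medium 0.42, high minus low 1.60, and tough minus tender −0.030 in high and 0.22 in medium. Width was −0.086 in high, 0.082 in medium, 0.089 in low and 0.028 over all, high minus medium −0.17, high minus low −0.18 and tough minus tender in high −0.026. Pileup was −0.15 in high, 0.47 in medium, 0.39 in low and 0.23 over all, high minus medium −0.62, high minus low −0.54 and tough minus tender in medium −0.16.

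Tough minus tender density in medium was −0.022 at −log10 q of at least 5, −0.053 by base pairs, −0.040, −0.0064 and −0.026 with 1, 2 and 5 Mb, and −0.028 as the median over chromosomes. With 1 Mb, high minus medium width was 0.0022, high minus low −0.063, medium minus low −0.065, tough minus tender width in high −0.012, pileup in low 0.054, high minus medium pileup −0.81 and high minus low −0.78. With 5 Mb, high minus medium density was −0.043 and pileup 0 in medium and −0.61 over all.

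With fold enrichment of at least 3, high minus medium width was −0.12, high minus low −0.17, and pileup 0.11 in low, 0.075 over all and 0.14 for tough minus tender in high. By means over peaks, pileup was −1.11 in medium and −1.04 over all, high minus medium −0.25, high minus low −0.69, medium minus low −0.45 and tough minus tender in high 0.059. With peaks within 500 bp joined, pileup was 0.076 in low, high minus medium −0.55, high minus low −0.51, and tough minus tender 0.022 in high and 0 in low. Without the centromere-side 3 Mb, pileup was −1.53 for high minus medium, −1.31 for high minus low and 0 for tough minus tender in high, and without chromosome 8 the last was 0.021.

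Leaving out a library gave, for density, −0.0038 (without HTE_2) to 0.11 (without HTO_1, adjusted p = 0.0286 by exact permutation) in high minus medium, and for tough minus tender −0.022 to 0.035 in medium and 0.074 (without LTO_2) to 0.47 (without LTO_1) in low. For width, tough minus tender in high ran from −0.0036 to 0.039. For pileup, high minus medium ran from −1.63 (without HTO_2, adjusted p = 0.0429 by exact permutation) to −1.14 (without HTO_1), high minus low from −1.39 (without HTO_2) to −0.90, all libraries from −0.52 (without either MTE library) to −0.32, low from −0.21 to 0 (without LTE_1), tough minus tender in high from −0.76 to 0.71, and in low from 0 (without LTE_1) to 0.63.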
